A study of Homo sapiens with 12 samples.

Results

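Multidrug ABC transporters are membrane pumps that spend ATP to move drugs and metabolites out of cells, and 8 of them were followed here across PC9 cells under the EGFR inhibitor erlotinib and in a TDP1 knockout line. The members were chosen by name as ABCB1, ABCC1, ABCC2, ABCC3, ABCC4, ABCC5, ABCC10 and ABCG2, and all 8 were found among the 62754 gene identifiers of the deposited count table. PC9 is an established human lung adenocarcinoma line with an activated EGFR, and the cultures came from a subclonal line described earlier. Polyadenylated RNA was sequenced in 12 libraries, with 3 replicate cultures for each of 4 groups. The first group was TDP1 wild type without drug (untreated WT), the second wild type kept in 1 µM erlotinib for 7 days, called drug-tolerant cells (DTC), and the third wild type kept at the same dose for 28 days (drug-tolerant expanded cells, DTEC). The last group was the TDP1 knockout line KO2 without drug. The replicate cultures of a condition were split from a common flask and then kept apart, so p-values measure the spread between such cultures. The knockout was represented by 1 line, so the loss of TDP1 and other differences of that line cannot be told apart.

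The transporters share a plan in which membrane-spanning domains form the path for the cargo and nucleotide-binding domains power it. ABCB1 (P-glycoprotein) and ABCG2 (BCRP) are known for expelling uncharged or amphipathic drugs, and both accept erlotinib. ABCG2 also exports camptothecin-type poisons of topoisomerase I, the enzyme whose trapped complexes TDP1 repairs. The ABCC proteins (multidrug resistance-associated proteins) mostly carry anions, such as drugs joined to glutathione, glucuronate or sulfate. In airway and lung epithelium ABCC1 and ABCG2 are among the better known members.

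Library totals ran from 25572691 to 38373679 estimated counts, and 3 counts, taken as the detection floor, equalled 0.0824 to 0.115 CPM (counts scaled to a common library total after TMM normalisation). TDP1 was at 10.1, 11.3 and 10.98 CPM in the 3 KO2 libraries against 25.1 to 28.1 CPM in untreated WT. A lower TDP1 level was not particular to KO2: the wild-type DTC libraries stood at 15.68, 12.66 and 13.55 CPM. Those of DTEC stood at 28.4, 25.4 and 26.1 CPM. The epithelial markers EPCAM, KRT7, KRT8, KRT18, KRT19 and CDH1 were present in every group, and their summed level was lowest in DTC, at 6290 to 7280 CPM. The sum was 9280 to 12200 CPM in DTEC, 10800 to 11400 CPM in untreated WT and 11500 to 12300 CPM in KO2. From untreated WT to DTC, KRT8 averaged 4020 and 1870 CPM, KRT18 2930 and 1180, KRT19 1190 and 946, and EPCAM 634 and 363. KRT7, at 1960 and 2070 CPM, and CDH1, at 285 and 298 CPM, were not lower in DTC. Of 4 fibroblast markers, COL1A2, DCN and LUM stayed below 0.5 CPM as group means, while COL1A1 averaged 8.30 CPM in untreated WT and 55.7 CPM in DTC. It averaged 12.4 CPM in DTEC and 13.8 CPM in KO2. The sum of 3 endothelial markers was 58.5 to 61.4 CPM in untreated WT, 41.9 to 49.5 in DTC and 122 to 142 in DTEC. It was 75.7 to 77.2 CPM in KO2. Of the 3, PECAM1 averaged 32 CPM in untreated WT, 8.77 at 7 days and 92.1 at 28 days, CDH5 27.7, 35 and 36.7 CPM, and VWF 0.122, 1.57 and 0.405 CPM. In KO2 PECAM1 averaged 48.4 CPM and CDH5 28 CPM. The sum of 4 leukocyte markers was 26.6 to 33.3 CPM in untreated WT, 36.5 to 53.6 in DTC and 34.1 to 40.4 in DTEC, nearly all of it CD68, while PTPRC and CD3E averaged at most 0.0896 CPM in any group. In KO2 the leukocyte sum was 25.9 to 28.8 CPM. The sum of 3 alveolar type II markers was 1.21 to 2.29 CPM in untreated WT, 1.08 to 2.2 at 7 days and 12.3 to 17.4 at 28 days, nearly all of the last from SFTPB. That sum was also higher in KO2, at 5.48 to 7.54 CPM, where SFTPB averaged 6.38 CPM against 1.51 CPM in untreated WT. Mitochondrial transcripts took 4.43% to 5.41% of counts in DTC and 1.82% to 2.78% in the other groups, and the part of these marker and mitochondrial differences in the transporter results was not tested. In these bulk libraries a lower level can mean less RNA per cell or fewer cells with the transcript, and the table cannot tell these apart.

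In untreated WT cells 5 of the 8 transporters were well expressed, 2 were low and 1 was not detected. The values by library are drawn in the plot of transporter levels. Per kilobase of annotated exon, ABCC2 had the highest mean at 21.96 ± 1.14 CPM per kilobase (SD, n = 3). ABCC1 followed at 20.3 ± 0.728, ABCC3 at 17.6 ± 0.994, ABCG2 at 15.8 ± 0.580 and ABCC5 at 13.1 ± 0.471 CPM per kilobase, and no neighbours among these 5 overlapped. ABCC10, at 2.02 ± 0.345, and ABCC4, at 1.86 ± 0.137 CPM per kilobase, overlapped each other. ABCB1 had 0 counts in all 3 untreated WT libraries, which allows up to 0.101 CPM in the shallowest of them. The order depended on the length used: with the longest annotated transcript in place of all exons, ABCC3 came first in untreated WT, and 3 of the 8 ranks were unchanged.

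**Figure D1:**
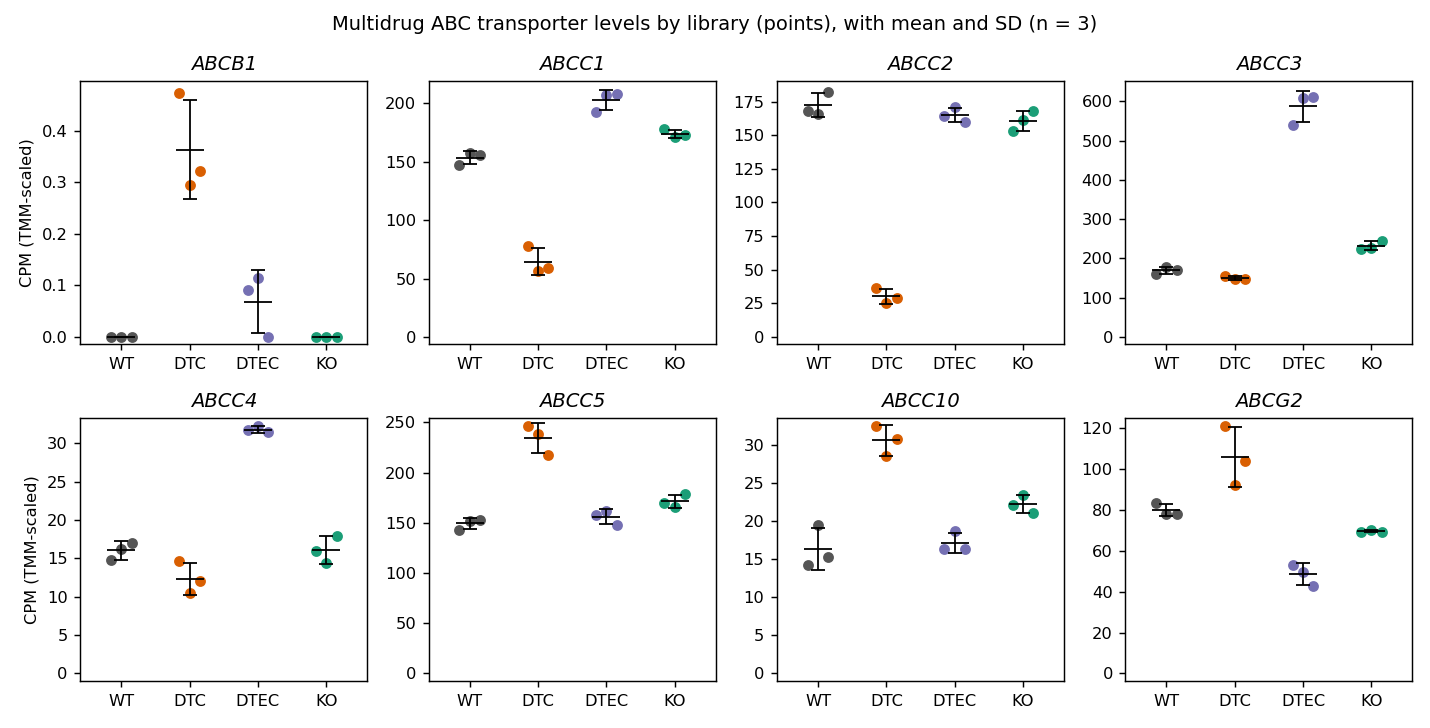
Level of each transporter in every library, in CPM on a linear axis from 0, with untreated WT, DTC, DTEC and KO2 (KO) along the x axis. Points are single libraries and bars give the mean and SD of 3. ABCC1 and ABCC2 dip in DTC, ABCC3 and ABCC4 peak in DTEC, and ABCB1 does not pass 0.473 CPM in any library.

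The sequence before the transcription start is shown for 3 members that had 1 RefSeq start and that stand for the 3 courses described next: ABCC2, lowest in DTC; ABCC4, highest in DTEC; and ABCC5, highest in DTC. RefSeq promoter windows on GRCh38.p14 were matched for 6 members, ABCB1, ABCC2, ABCC4, ABCC5, ABCC10 and ABCG2. Each stretch below reads 5′ to 3′ on the gene's strand and stops where the first annotated exon begins. Capitals mark letters matching a motif searched on both strands: the antioxidant response element core TGACNNNGC, the dioxin response element core GCGTG, the GC box GGGCGG, the CCAAT box CCAAT or the TATA box TATAAA.
ABCC2, chr10:99782390-99782639, plus strand: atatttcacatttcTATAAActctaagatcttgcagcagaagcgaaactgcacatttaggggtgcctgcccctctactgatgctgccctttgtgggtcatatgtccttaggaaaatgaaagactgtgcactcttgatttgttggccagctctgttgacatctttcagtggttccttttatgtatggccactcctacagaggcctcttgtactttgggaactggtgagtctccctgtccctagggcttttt
ABCC4, chr13:95301476-95301701, minus strand: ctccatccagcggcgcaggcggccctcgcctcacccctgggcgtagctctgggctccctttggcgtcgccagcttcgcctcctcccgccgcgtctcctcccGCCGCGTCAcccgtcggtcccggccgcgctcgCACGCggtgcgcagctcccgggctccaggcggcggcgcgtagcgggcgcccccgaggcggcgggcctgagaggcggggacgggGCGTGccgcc
ABCC5, chr3:184018016-184018134, minus strand: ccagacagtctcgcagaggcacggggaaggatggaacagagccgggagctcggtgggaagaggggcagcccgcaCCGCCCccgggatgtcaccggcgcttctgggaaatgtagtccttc

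These 3 promoters differed in base composition. Over the 250 bases before the start, the ABCC2 window was 45.6% GC with 1 CpG, the ABCC5 window 64.8% with 21, and the ABCC4 window 80.4% with 42, beside medians of 58% and 11 over 35114 windows of that length. The ABCC4 window held 1 antioxidant response element core, found in 10.9% of all windows, and 2 dioxin response element cores, found in 32.2%. ABCC2 held a TATA box letter match 236 bases before the start, and ABCC5 held one at 28 bases, in the part not printed, with the motif present in 10.7% of windows. ABCC5 also held 1 GC box, found in 42.6%, and none of the 3 windows held a CCAAT box, found in 32% of windows. No 2 motif matches overlapped in these windows.

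After 7 days of erlotinib the transporters moved apart. ABCC2 and ABCC1 fell, ABCC5, ABCC10 and ABCG2 rose, ABCC4 passed the threshold as lower and ABCC3 did not pass it. In this comparison 67.3% of 17115 tested genes were called at an adjusted p under 0.05 (edgeR quasi-likelihood test, Benjamini-Hochberg over all genes), 34.0% higher and 33.3% lower. Leaving ABCB1 aside, 3 of 7 members were called higher and 3 lower, in a table in which most genes changed. With so few members these counts are not read as a difference from all genes. Without overlap between the libraries, 35.1% of all genes were higher in DTC and 33.8% lower. The median log2 fold change over all 8 was 0.11, beside 0.06 over all genes tested. Directions are relative to the TMM scaling: scaling by total counts alone would have raised the median of all genes by 0.355 in DTC and 0.168 in DTEC.

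ABCC2 (ENSG00000023839, chromosome 10, 99782640 to 99852594, GRCh38), which pumps conjugated bilirubin and drug conjugates through the apical membrane, had the largest fall among the 7 members with counts in untreated WT. Its untreated WT libraries stood at 168, 166 and 182 CPM, and the DTC libraries at 36.3, 25.1 and 28.7 CPM. Every DTC library lay far below every untreated one. The log2 fold change was -2.52 (SE 0.124, adjusted p 7.01e-10). ABCC1 (ENSG00000103222, chromosome 16, 15949577 to 16143074), an exporter of glutathione conjugates and leukotrienes, went from 147, 157 and 156 CPM to 77.4, 56.0 and 59.2 CPM. Its 2 sets of libraries did not overlap, and the log2 fold change was -1.26 (SE 0.113, adjusted p 2.4e-07).

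ABCC3 (ENSG00000108846, chromosome 17, 50634777 to 50692252), a basolateral exporter of glucuronides and bile salts, stood at 160 to 179 CPM in untreated WT and 147 to 155 CPM in DTC. Its log2 difference of -0.18 missed the threshold (95% interval -0.37 to 0.02, adjusted p 0.0961), and its sign turned with total counts alone (0.18) or the upper quartile (0.11). ABCC4 (ENSG00000125257, chromosome 13, 95019829 to 95301475), which carries cyclic nucleotides and nucleoside drugs, stood at 14.75, 16.3 and 17.1 CPM in untreated WT and 14.6, 10.45 and 12.02 CPM in DTC. DTC replicate 1 nearly reached the lowest untreated library. Its call (log2 fold change -0.38, SE 0.128, adjusted p 0.0176) was lost without untreated WT replicate 2 (0.0678) or 3 (0.0987), without DTC replicate 2 (0.17, with a log2 fold change of -0.21) or 3 (0.0931), with the upper quartile (0.522) or total counts alone (0.881), and in a fit of the 6 compared libraries (0.0571).

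Among the members that rose, ABCC10 had the larger change and ABCC5 the higher level. ABCC10 (ENSG00000124574, chromosome 6, 43427366 to 43450430), known for exporting taxanes, went from 14.3, 19.5 and 15.3 CPM to 32.6, 28.5 and 30.7 CPM, with all DTC libraries above all untreated ones. The log2 fold change was 0.90 (SE 0.123, adjusted p 1.44e-05). Only 1 of its 12 deposited values was a whole number, and 79 bases of its exons overlap those of DLK2 on the other strand, so part of its reads may be shared. ABCC5 (ENSG00000114770, chromosome 3, 183919934 to 184018015), an exporter of cyclic nucleotides and nucleotide analogues, went from 143, 152 and 153 CPM to 247, 239 and 218 CPM, a log2 change of 0.65 (SE 0.087, adjusted p 1.31e-05) with no overlap.

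ABCG2 (ENSG00000118777, chromosome 4, 88090264 to 88231322) rose less and less evenly. It stood at 83.2, 78.1 and 78.1 CPM in untreated WT and at 121, 92.1 and 104 CPM in DTC, where the lowest library was still above the highest untreated one. Its log2 fold change was 0.41 (SE 0.110, adjusted p 0.00474). With total counts alone the value was 0.76, and without DTC replicate 1 it was 0.33 (adjusted p 0.00467).

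ABCB1 (ENSG00000085563, chromosome 7, 87503633 to 87713323) had 0 counts in untreated WT and 14, 10 and 11 counts in DTC. On the CPM scale the DTC libraries were at 0.473, 0.294 and 0.323, so that their mean was at least 3.59-fold above the untreated WT floor of 0.101 CPM. The adjusted p was 0.00133, but ABCB1 entered the test only through its DTC libraries, so the call adds nothing to the counts. At this level it gave 0.083% of the summed transporter signal per kilobase in DTC.

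**Figure D2:**
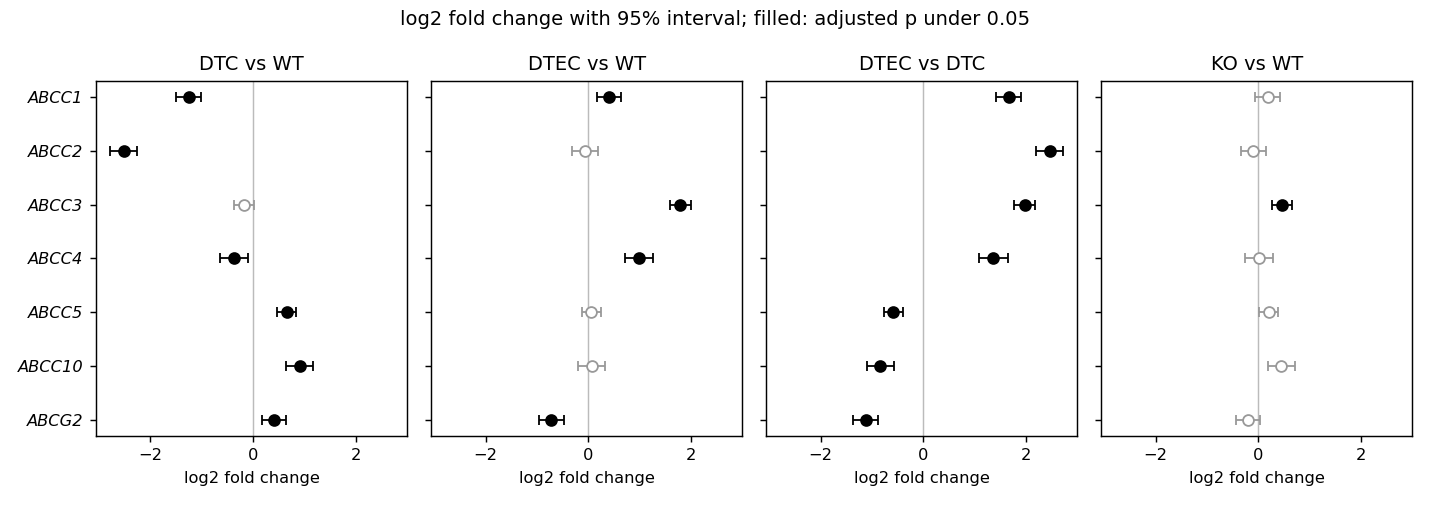
Fitted log2 fold change (x axis) of 7 transporters in the 4 comparisons, with 95% intervals, from the fit of all 12 libraries. Filled points had an adjusted p under 0.05. ABCB1 is left out because its untreated libraries were at 0, and ABCC1, ABCC4 and ABCG2 have filled points on opposite sides of 0 in DTC against WT and DTEC against WT, while ABCC3 goes from an open point below 0 to a filled one above.

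By 28 days the picture was different: ABCC3, ABCC4 and ABCC1 were above untreated WT, ABCG2 was below it, and ABCC2, ABCC5 and ABCC10 missed the threshold. Of all genes tested 52.3% were called in this comparison, 26.0% higher and 26.3% lower, so 4 called of the 7 members with counts in untreated WT is near the background. Non-overlapping libraries were found for 31.1% of genes upward and 31.3% downward. Over 8 members the median was 0.06 with ABCB1 set to 0, beside 0.02 for all genes.

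ABCC3 had the largest change. Its DTEC libraries stood at 540.2, 609 and 612 CPM against 159.5, 179 and 171 CPM in untreated WT, with a wide gap between the 2 sets. The log2 fold change was 1.79 (SE 0.093, adjusted p 5.5e-09), equal to 3.46-fold. ABCC4 stood at 31.7, 32.2 and 31.4 CPM in DTEC, close to each other and all above the untreated libraries, a log2 change of 0.99 (SE 0.127, adjusted p 1.81e-05). ABCC1 reached 193, 207 and 208 CPM, a smaller rise of 0.40 (SE 0.111, adjusted p 0.0077), also without overlap.

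ABCG2 fell to 53.2, 49.7 and 42.9 CPM in DTEC, below every untreated WT library. Its log2 fold change was -0.72 (SE 0.111, adjusted p 1e-04). ABCC2, at 164, 171 and 160.2 CPM, lay within or just under its untreated range, with a log2 difference of -0.06 (95% interval -0.31 to 0.19, adjusted p 0.682). ABCC5 was at 158, 162 and 148 CPM (0.06, interval -0.13 to 0.25, adjusted p 0.575), and with total counts alone it was called (0.23, adjusted p 0.0387). ABCC10 was at 16.4, 18.7 and 16.3 CPM, inside its untreated range (0.07, interval -0.20 to 0.33, adjusted p 0.677). ABCB1 had 3, 3 and 0 counts in DTEC, at or under the floor, so no fold is given. Its adjusted p was 0.0626, and it was 0.0214 without DTEC replicate 3.

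Set directly against DTC, the expanded cells differed in each of the 7 members with counts in every group: ABCC1, ABCC2, ABCC3 and ABCC4 were higher in DTEC, and ABCC5, ABCC10 and ABCG2 were lower. All 3 DTEC libraries lay on one side of all 3 DTC libraries for each of these 7. Over all tested genes 55.4% were called in this comparison, 28.8% higher and 26.6% lower, and libraries without overlap made up 29.0% upward and 27.7% downward. ABCC2 changed most, with a log2 fold change of 2.46 (SE 0.123, adjusted p 2.12e-09). ABCC3 rose by 1.97 (SE 0.094, adjusted p 1.25e-09), ABCC1 by 1.66 (SE 0.115, adjusted p 4.61e-08) and ABCC4 by 1.37 (SE 0.128, adjusted p 8.76e-07). ABCG2 fell by 1.12 (SE 0.112, adjusted p 1.53e-06), ABCC10 by 0.84 (SE 0.123, adjusted p 5.41e-05) and ABCC5 by 0.59 (SE 0.087, adjusted p 6.15e-05). These calls held in every alternative tried for the 7 genes.

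ABCB1 had 6 counts in all in DTEC against 35 in DTC. The ratio of the rates was 0.175, with a 95% interval of 0.0603 to 0.422 that covers counting error only. Because ABCB1 entered the test only through DTC, the fitted adjusted p of 0.0286 is given as a description. It no longer passed the threshold without DTC replicate 1 (0.0705) or 3 (0.0597), without DTEC replicate 1 (0.0579) or 3 (0.078), with no filter (0.0595) and with DESeq2 (0.0953).

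In the untreated knockout line ABCC3 was the member that passed the threshold. Its KO2 libraries stood at 225, 227 and 246 CPM, all above untreated WT, with a log2 fold change of 0.46 (SE 0.091, adjusted p 0.011). Of all genes 4.31% were called in this comparison, 2.76% higher and 1.55% lower, while the libraries did not overlap for 15.8% upward and 19.9% downward. The ABCC3 call was lost without untreated WT replicate 1 (0.0714) or 3 (0.0586) or KO2 replicate 2 (0.0526) or 3 (0.0768), while the fold change stayed between 0.43 and 0.52 over all alternatives. Each of those fits also called fewer genes in all: leaving out any 1 of untreated WT replicates 1, 2 and 3 gave 321, 426 and 346 calls, and leaving out KO2 replicates 1, 2 and 3 gave 353, 337 and 360, against 738.

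ABCC10 came next in the knockout. At 22.2, 23.4 and 21.1 CPM its KO2 libraries were all above untreated WT, and its log2 difference of 0.44 missed the threshold (95% interval 0.18 to 0.71, adjusted p 0.0591). It passed in 6 of the 7 other settings with all libraries of the comparison: 0.0432 with the upper quartile, 0.0312 with total counts, 0.0365 with no filter, 0.0422 with the replicate number as a block, 0.0159 with the 6 libraries alone and 0.019 with DESeq2. It also passed without untreated WT replicate 2 (0.021). ABCC5 stood at 166 to 179 CPM (0.20, interval 0.01 to 0.39, adjusted p 0.263) and ABCC1 at 171 to 178 CPM (0.18, interval -0.06 to 0.42, adjusted p 0.452), both above all untreated libraries. ABCG2 stood at 69.1 to 69.95 CPM, below all untreated libraries (-0.20, interval -0.44 to 0.04, adjusted p 0.394). In the fit of the 6 libraries alone these 3 passed, at 0.0141 for ABCC5, 0.0185 for ABCC1 and 0.0436 for ABCG2. ABCC2 (-0.10, interval -0.35 to 0.15) and ABCC4 (0.01, interval -0.27 to 0.28) overlapped their untreated ranges, and ABCB1 had 0 counts in all 3 KO2 libraries.

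Adding the 8 members per kilobase shows how the make-up of the set shifted. The summed level without drug was 92.6 ± 2.36 CPM per kilobase (SD, n = 3), beside 101 ± 2.46 in KO2. At 7 days it was 74.6 ± 6.74 and at 28 days 138 ± 4.99 CPM per kilobase. ABCC3 made up 19% ± 0.713 of the sum without drug, 21% ± 1.24 at 7 days, 44.2% ± 1.78 at 28 days and 23.9% ± 0.581 in KO2. The 2 largest shares in untreated WT were those of ABCC2, at 23.7%, and ABCC1, at 21.9%, which were 5.11% and 11.3% in DTC. ABCG2 and ABCC5 held 28% and 27.5% in DTC, against 7% and 9.89% in DTEC. These shares use the length of all annotated exons, and their order depends on it. With the longest transcript, ABCC3 (29.67) and ABCC2 (29.65 CPM per kilobase) led in untreated WT, and ABCC1 (23.3) came after ABCC5 (25.2). In DTC, ABCC5 (39.6) and ABCC3 (26.2) then stood above ABCG2 (23.6 CPM per kilobase).

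Within groups the order by level per kilobase changed accordingly. In DTC the highest were ABCG2, at 20.96 ± 2.89, and ABCC5, at 20.5 ± 1.31 CPM per kilobase, which overlapped, as did ABCC2 at 3.83 and ABCC10 at 3.78. In DTEC the order was ABCC3 at 61.1 ± 4.22, ABCC1 at 26.7 ± 1.13, ABCC2 at 21.1 ± 0.677, ABCC5 at 13.6 ± 0.647, ABCG2 at 9.63 ± 1.04, ABCC4 at 3.68, ABCC10 at 2.12 and ABCB1 at 0.0118 CPM per kilobase, with no overlap between neighbours. In KO2, ABCC3 at 24.2 ± 1.18 overlapped ABCC1 at 22.96 ± 0.449. With the longest transcript as the length, 8 of 8 ranks were unchanged in DTEC, 6 in KO2 and 3 in DTC.

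**Figure D3:**
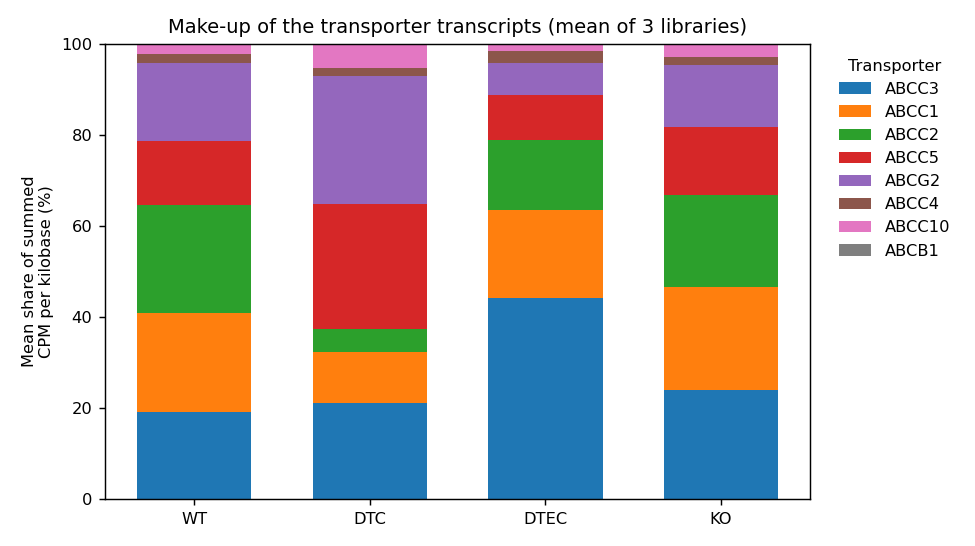
Mean share (y axis, percent) of each transporter in the summed CPM per kilobase of the 8, for untreated WT, DTC, DTEC and KO2 (KO), over 3 libraries a group. The ABCC3 segment widens from 19% in WT to 44.2% in DTEC, and the ABCC2 segment is smallest in DTC, at 5.11%.

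The genes that followed each transporter most closely over the 12 libraries were looked up among 9802 genes with a symbol and a mean of at least 10 CPM. The likeness is Pearson's r of log2 CPM, a description over libraries that fall into 4 groups and share them. For ABCC2 the closest was GLB1L2 (r 0.998), with group means of 122 CPM (untreated WT), 19.6 (DTC), 117 (DTEC) and 113 (KO2), followed by ABHD17C (r 0.9945). In the same group order, ABCC1 was nearest to TGM2 (r 0.996; 819, 298, 1220 and 960 CPM), a transglutaminase, and GNE (r 0.996), an enzyme of sialic acid synthesis. For ABCC3 they were the kinase PIM1 (r 0.995; 22.1, 21.6, 93.3 and 33.6 CPM) and ACSS2 (r 0.991), which makes acetyl-CoA from acetate. ABCC4 was closest to MAML2 (r 0.986) and HCAR1 (r 0.983), ABCG2 to LCP1 (r 0.991; 436, 590, 214 and 368 CPM) and NECAP1 (r 0.983), ABCC5 to P3H2 (r 0.973) and HSPG2 (r 0.973), and ABCC10 to NTN1 (r 0.960) and HSPG2 (r 0.958). The nearest for ABCB1, RAB2B (r 0.986) and DLG1 (r 0.983), rest on a gene with few counts.

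The rest of the ABC family gives the setting. List counts from here on stand beside these shares of all tested genes. In DTC 34.0% were higher and 33.3% lower, in DTEC 26.0% and 26.3%, and in DTEC against DTC 28.8% and 26.6%. In KO2 they were 2.76% and 1.55%. Among the genes named from here on, ABCA12, ABCC11, GSTA4, GSTM1, GSTM2, SULT1E1, CYP1A2, SLC28A3 and SLCO2B1 had at most 10 counts in any untreated WT library. They entered the test only through groups where they were higher, and UGT1A10 only through groups without drug, so their p-values, and their places in the counts of their lists, describe these libraries and support nothing. Of 9 other ABCB and ABCC genes of the plasma membrane 3 passed the low-count filter, and 1 changed in DTC: ABCC11, higher by 2.24 (adjusted p 0.00153) at only 0.596 ± 0.165 CPM. It was lower in DTEC than in DTC (-1.47, adjusted p 0.0192), a call lost with no filter or without DTC replicate 3 or DTEC replicate 1 or 3 (adjusted p up to 0.0791). Of 20 lipid and sterol transporters 12 were tested, and in DTC 6 rose and 3 fell. ABCA5 was at 1.44 ± 0.179 CPM without drug and 19.2 ± 2.09 CPM in DTC, a log2 rise of 3.73 (adjusted p 3.03e-10), and ABCG1, a cholesterol exporter, fell from 6.62 ± 0.382 to 1.61 ± 0.179 CPM (-2.04, adjusted p 6.88e-08). ABCA12 rose by 2.08 from a level near the floor (adjusted p 0.0128, and 0.0783 without DTC replicate 1).

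In DTEC 5 of the 12 lipid and sterol genes rose and 3 fell, led by ABCA12 (2.65, adjusted p 0.00344), ABCA4 (2.39, adjusted p 1.08e-08) and ABCA5 (2.08, adjusted p 2.12e-07). Against DTC, 3 were higher and 4 lower in DTEC, with ABCG1 higher by 1.77 (adjusted p 7.43e-07), ABCA1, the cholesterol efflux pump, higher by 1.28 (adjusted p 3.18e-06) and ABCA5 lower (-1.65, adjusted p 4.62e-07). In KO2 5 of 12 rose and none fell, where 4.31% of all genes were called. ABCA4 went from 3.78 ± 0.548 to 11.99 ± 0.966 CPM (1.66, adjusted p 8.21e-06) and ABCG1 to 13.1 ± 0.619 CPM (0.98, adjusted p 0.00156). ABCA7 rose by 0.92 (adjusted p 0.0374), a call lost without any 1 of the 6 compared libraries (adjusted p up to 0.14).

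Of the 7 peptide and mitochondrial transporters 1 rose and 4 fell in DTC, beside 34.0% and 33.3% of all tested genes. TAP1, which feeds peptides to HLA class I, went from 12.3 ± 0.930 to 41.4 ± 3.10 CPM (1.75, adjusted p 9.52e-09), while ABCB10, of the mitochondrial inner membrane, fell from 27.7 ± 2.35 to 7.75 ± 2.19 CPM (-1.84, adjusted p 1.92e-07). In DTEC none rose and 3 fell: ABCB10 (-1.37, adjusted p 7.44e-06), TAP2 (-1.17, adjusted p 3.7e-06) and ABCB8 (-0.75, adjusted p 0.0026). Between DTC and DTEC 2 rose and 3 fell, among the latter TAP1 by -1.71 (adjusted p 3.38e-08) and ABCB8 by -0.69 (adjusted p 0.00452). TAP2 had no whole number among its 12 deposited values, so reads may be shared with other genes.

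The 4 ABC proteins without membrane domains, which act in translation and ribosome recycling, were all called lower in both drug groups, beside 33.3% of all tested genes in DTC and 26.3% in DTEC. Their median log2 fold change was -1.09 in DTC and -0.79 in DTEC, beside 0.06 and 0.02 over all genes. The largest changes in DTC were those of ABCE1, from 237 ± 17.95 to 77.6 ± 7.59 CPM (-1.61, adjusted p 1.42e-08), ABCF2 (-1.37, adjusted p 9.36e-08) and ABCF1 (-0.81, adjusted p 3.01e-05). In DTEC the leading values were -1.01 for ABCF2 (adjusted p 4.54e-06), -0.84 for ABCF3 (adjusted p 6.42e-06) and -0.74 for ABCE1 (adjusted p 5.31e-05). Against DTC, ABCE1 was higher in DTEC (0.87, adjusted p 1.21e-05), and so was ABCF2 (0.36, adjusted p 0.0142), a call lost in 7 of 13 alternatives. ABCF2 too had 0 whole values of 12.

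**Figure D4:**
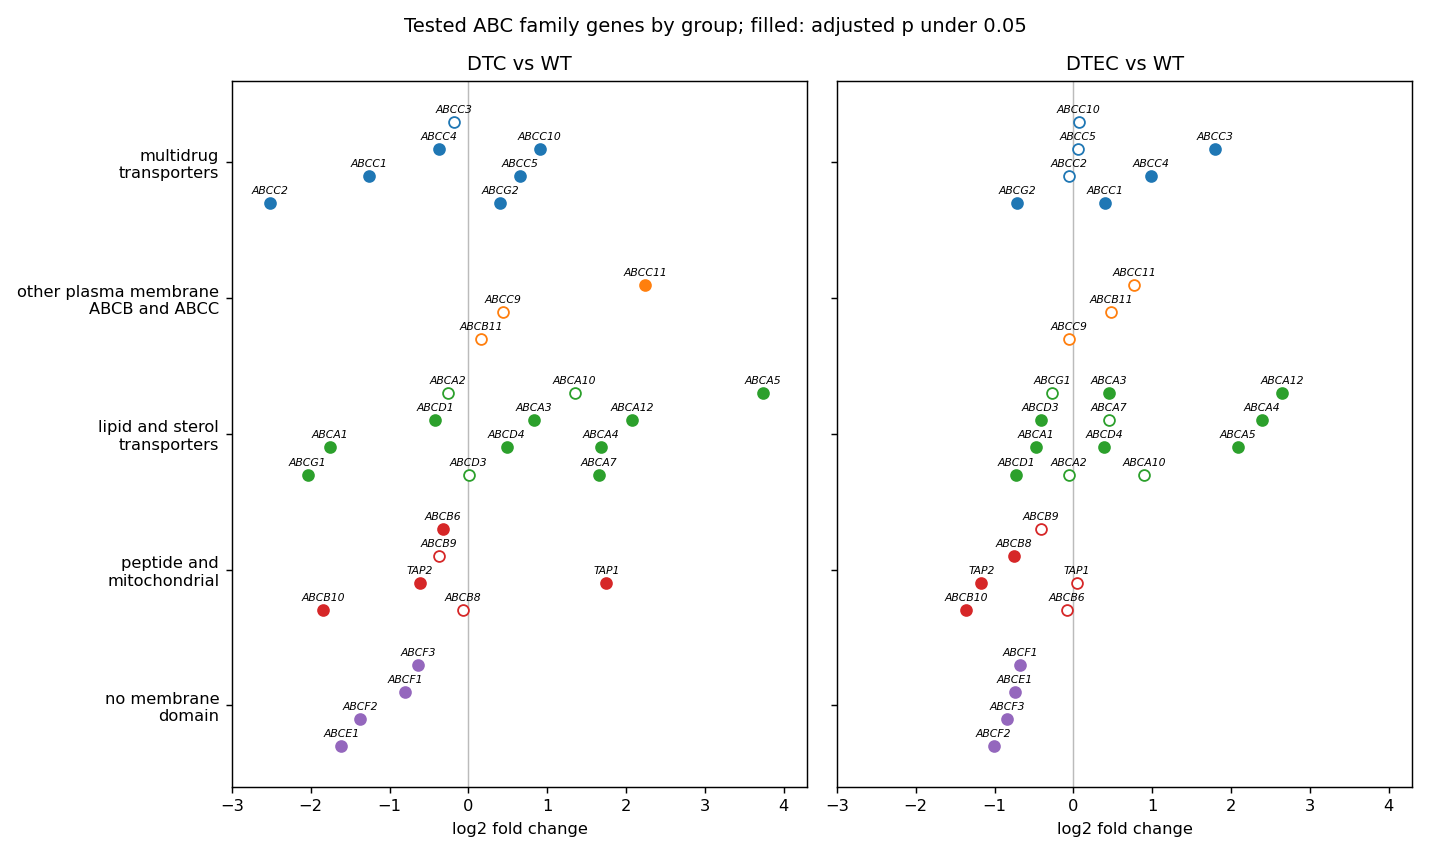
Fitted log2 fold change (x axis) of the tested ABC family genes in DTC (left) and DTEC (right) against the same untreated WT libraries, in 5 groups by role. Filled points had an adjusted p under 0.05; the 4 genes without a membrane domain all lie below 0, and the multidrug transporters lie on both sides. ABCB1 and 1 gene of the peptide and mitochondrial group are left out, and height within a group only separates the labels.

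Of 17 listed regulators known to act on drug transporter genes 13 were tested, and in DTC 3 rose and 8 fell, beside 34.0% and 33.3% of all genes. Their median was -0.51, and the scaling by total counts given above moves such a split upward. PPARG fell from 156 ± 7.80 to 47.6 ± 3.65 CPM (-1.72, adjusted p 1.31e-09), YBX1 by 1.32 (adjusted p 1.88e-08) and VDR, the vitamin D receptor, by 1.20 (adjusted p 8.17e-07). In DTEC 5 rose and 4 fell, led by PPARA (1.51, adjusted p 7.19e-06), YBX1 (-1.05, adjusted p 4.94e-07) and KEAP1, the repressor of NRF2 (-0.80, adjusted p 6.69e-05). From DTC to DTEC 6 rose and none fell, with PPARG up by 1.27 (adjusted p 5.28e-08), RXRA by 1.26 (adjusted p 2.11e-06) and FOXO3 by 1.08 (adjusted p 8.17e-05). FOXO3 had 0 and PPARA 1 whole values of 12, so reads of both may be shared with other genes.

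In the list of 8 scaffold and membrane linker genes, which also holds the kinase PIM1, 1 rose and 3 fell in DTC. Over all tested genes 34.0% rose and 33.3% fell. PDZK1, a scaffold for apical transporters, rose from 0.654 ± 0.267 to 3.84 ± 0.458 CPM (2.56, adjusted p 4.33e-06), and EZR (ezrin), which ties apical proteins to actin, fell from 1564 ± 49.5 to 692 ± 130 CPM (-1.18, adjusted p 8.26e-07). NHERF1 had a log2 fold change of -0.34 (adjusted p 0.0201) that was lost in 6 of 13 alternatives, at -0.054 with the upper quartile and, with the sign turned, 0.011 with total counts alone. In DTEC 1 rose and 4 fell: PIM1, the gene nearest to ABCC3 above, by 2.08 (adjusted p 1.15e-09), MSN by -0.54 (adjusted p 0.00379) and CAV1 by -0.34 (adjusted p 0.03), the last lost in 8 of 13 alternatives. Against DTC 3 were higher and 2 lower in DTEC, PIM1 by 2.11 (adjusted p 5.08e-10), EZR by 0.88 (adjusted p 2.73e-05) and PDZK1 by -1.86 (adjusted p 0.000102). In KO2 PIM1 rose by 0.61 (adjusted p 0.00149) and RDX (radixin) fell by 0.53 (adjusted p 0.00519).

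Enzymes that make conjugates for ABCC pumps moved in both directions. Of 15 tested glutathione genes (of 17) 8 rose and 5 fell in DTC, beside 34.0% and 33.3% of all tested genes. The 5 that fell, named after their values were seen, were GCLM (-1.37), GSR (-1.34), GCLC (-1.095), MGST1 (-0.75) and GSS (-0.335). GSTM4 rose from 22.2 ± 3.28 to 179 ± 7.97 CPM (3.02, adjusted p 7.08e-11), GSTM2 from 0.182 ± 0.1001 to 25.8 ± 5.87 CPM (7.10, adjusted p 3.5e-10) and GSTM1 from near the floor to 0.871 ± 0.0463 CPM (adjusted p 0.000484). These are close paralogs, with 4, 2 and 7 of 12 whole values, so reads may have been split among them. In DTEC 7 rose and none fell, led by GSTM2 (3.72, adjusted p 9.77e-07), GSTA4 (2.94, adjusted p 4.88e-05) and GSTK1 (1.46, adjusted p 2.18e-07). GSTK1 rose more in DTC (2.08, adjusted p 2.59e-09). Against DTC 5 were higher and 7 lower, with GSTM1 (adjusted p 0.000187), GSTM2 (-3.38, adjusted p 4.77e-08) and GSTM4 (-2.23, adjusted p 1.3e-09) all lower. The 5 higher were the same 5 that fell in DTC: GCLC (1.63), GSR (1.405), GCLM (1.11), MGST1 (0.88) and GSS (0.58).

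Among glucuronidation and sulfation genes 8 of 12 were tested, of which 2 rose and 3 fell in DTC, beside 34.0% and 33.3% of all tested genes. UGDH, which makes the glucuronate donor, fell from 292 ± 20.9 to 82.9 ± 11.05 CPM (-1.82, adjusted p 4.6e-09) and was higher again in DTEC (1.83 against DTC, adjusted p 1.11e-08). SULT1E1, at 0 counts in untreated WT, was at least 10.2-fold higher in DTC (adjusted p 4.74e-05) and at least 4.92-fold higher in DTEC (adjusted p 0.000389). UGT1A10 was lower in DTC (-4.35, adjusted p 0.00691) and at 0 counts in DTEC, at least 37.7-fold lower (adjusted p 0.00236), but it shares exons with the other UGT1A genes. In DTEC 3 rose, SULT1A1 among them (1.08, adjusted p 3.9e-05), and 1 fell. Against DTC 5 were higher and none lower, including UGT1A6 (0.81, adjusted p 6.56e-06) and SULT1A1 (0.60, adjusted p 0.00333), a gene with close paralogs and 0 whole values of 12. In KO2 SULT2B1 alone of the 8 was called, higher by 0.73 (adjusted p 0.00403).

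The list of cytochrome P450 enzymes, which oxidize drugs and include those that clear erlotinib, also holds their electron-transfer partners. Of its 15 genes 12 were tested. In DTC, where 34.0% of all tested genes rose and 33.3% fell, 8 rose, all of them P450 genes, and 3 fell. Those 3, named after their values were seen, were the partners POR (-0.32, adjusted p 0.0393) and CYB5A (-0.58, adjusted p 0.015) and the P450 gene CYP4F11 (-0.39, adjusted p 0.0039). CYP1A1 rose from 1.64 ± 0.218 to 11.5 ± 1.54 CPM (2.80, adjusted p 7.44e-06), CYP2J2 by 2.11 (adjusted p 3.08e-07) and CYP1A2 from the floor to 0.786 ± 0.0406 CPM (adjusted p 0.000807). In DTEC 2 rose and 2 fell: CYP24A1 by 1.85 (adjusted p 6.3e-08), CYP2S1 by 1.46 (adjusted p 1.8e-07), and CYP1A1 by -3.03 (adjusted p 0.000133) to 0.196 ± 0.181 CPM. From DTC to DTEC 3 rose and 5 fell, among them CYP1B1, from 1207 ± 177 to 252 ± 26.5 CPM (-2.26, adjusted p 3.16e-09), CYP1A1 (-5.82, adjusted p 1.82e-07) and CYP1A2 (adjusted p 0.0297, and up to 0.079 without single libraries). In KO2 CYP2S1 rose by 1.04 (adjusted p 0.000127).

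Most of the solute carriers listed next, though not all, are known for bringing drugs in, where ABC pumps take them out. Of 15 tested (of 17) 6 rose and 7 fell in DTC, beside 34.0% and 33.3% of all tested genes. SLC28A3, a concentrative nucleoside carrier, rose from 0.197 ± 0.0705 to 10.5 ± 1.09 CPM (5.72, adjusted p 7.09e-09), SLCO2B1 was at least 21.3-fold higher (adjusted p 6.19e-06), and SLCO4A1 fell from 136 ± 28.3 to 16.3 ± 1.58 CPM (-3.06, adjusted p 6.51e-09). In DTEC 2 rose and 8 fell, beside 26.0% and 26.3% of all tested genes. SLC28A3 was up by 3.55 (adjusted p 3.02e-06). SLC19A1, the reduced folate carrier, was down to 23.1 ± 5.64 CPM (-1.54, adjusted p 4.81e-06). SLC29A1, an equilibrative nucleoside carrier, fell from 120 ± 0.836 to 46.1 ± 3.16 CPM (-1.38, adjusted p 1.3e-07). In DTC both were lower still, SLC19A1 at -2.59 (adjusted p 1.65e-08) and SLC29A1 at -2.08 (adjusted p 9.15e-10). Both were higher in DTEC than in DTC (SLC19A1 1.05, adjusted p 0.000159, and SLC29A1 0.70, adjusted p 5.41e-05). Against DTC 4 were higher and 5 lower in DTEC, with SLCO2B1 (adjusted p 3.4e-05) and SLC28A3 (-2.18, adjusted p 1.26e-05) among those lower. In KO2 SLC28A3 was called higher (1.69, adjusted p 0.0361), which was lost in 5 of 13 alternatives.

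Of 6 other genes tied to drug handling, not all of them to efflux, MVP, the major vault protein, rose from 41.6 ± 3.49 to 115 ± 8.60 CPM in DTC (1.47, adjusted p 7.99e-08) and 127 ± 20.3 CPM in DTEC (1.61, adjusted p 1.3e-07). It was also higher in KO2 (0.60, adjusted p 0.0103), a call lost without untreated WT replicate 1 or 3 or KO2 replicate 2 or 3 (adjusted p up to 0.0763). In DTC LRRC8A rose by 0.44 (adjusted p 0.0038) and TMEM205 fell by 0.89 (adjusted p 1.09e-05). ATP7A, a copper pump, rose in DTEC by 1.54 (adjusted p 2.01e-06). Against DTC it was higher by 1.36 (adjusted p 5.41e-06), TMEM205 by 1.10 (adjusted p 3.08e-06), and LRRC8A was lower (-0.66, adjusted p 0.000281). ATP7A and TMEM205 had 0 whole values of 12, so their reads may be shared with other genes.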

How the data were processed

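The file held expected counts, estimated reads per Ensembl gene without scaling to depth, deposited by the authors as 1 table of 62754 genes and 12 libraries. Per the labels' protocols the libraries were stranded and from polyadenylated RNA. RSEM 1.3.1, Bowtie2 2.5.2, DESeq2 1.40.2 and GRCh38 are named in the submitters' processing notes, with no role given. The annotation release and any use of strand in counting are not given in the sources used here. Symbols came from a table of gene names (62700 identifiers matched), and coordinates and exon lengths from GENCODE 29 (58261 matched).

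Rounded counts went into edgeR 4.0.16 (R 4.3.3): filterByExpr by group (17115 genes kept), TMM scaling, 1 mean per group over all 12 libraries, robust quasi-likelihood tests and Benjamini-Hochberg adjustment. The SE is the log2 fold change divided by the root of F. CPM uses TMM-scaled totals, and ± is the SD over 3 libraries. A fold against a group at 0 counts is a bound against 3 counts in a library. The procedure was tested on simulated counts in which few genes changed, equally many up and down. That simulation does not test the scaling where most genes were called, as in DTC.

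All 8 transporters were named, with up to 3 called genes of largest change per list in each comparison, and the 2 genes most alike per transporter (prior count 2); a few genes under this rule are not reported here, though list counts include them. The members and the 11 other lists were chosen with earlier results of these data known. Alternatives were other scalings, no filter, DESeq2 1.42.0, the 6 compared libraries alone, a replicate block and leaving out each library.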

Additional observations from a re-analysis of the deposited data

Results flagged for a closer look

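The effect of erlotinib against untreated WT differed between 28 and 7 days in the direct test for the 7 transporters other than ABCB1, in values given as DTEC minus DTC on the log2 scale. ABCC1 (1.66), ABCC2 (2.46), ABCC3 (1.97) and ABCC4 (1.37) were higher at 28 days. ABCC5 (-0.59), ABCC10 (-0.84) and ABCG2 (-1.12) were lower. The ABCB1 count ratio was 0.175, which is a description, since ABCB1 entered the test only through DTC. ABCC1, ABCC4 and ABCG2 had called changes of opposite sign at the 2 times, although the 7-day call of ABCC4 rests on the settings and libraries named above. Both effects are measured from the same untreated WT libraries, and of all tested genes 55.4% were called as differing between the 2 times.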

How the results depend on the processing

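Of 401 alternative values for 31 transporter results, 365 kept their direction and side of the threshold, 17 lost the call, 12 gained one and 7 changed sign; the cause of a change was not tested unless fewer libraries or genes entered the fit. With the upper quartile ABCC3 in DTC was 0.11, ABCC4 in DTC -0.092, ABCC2 in DTEC 0.054 and ABCC10 in KO2 0.47. With total counts alone ABCC3 in DTC was 0.18, ABCC4 in DTC -0.023, ABCC2 in DTEC 0.11, ABCC5 in DTEC 0.23 and ABCC10 in KO2 0.51. With no filter ABCC10 in KO2 was 0.47, ABCB1 in DTEC against DTC had an adjusted p of 0.0595, and KO2 gave 1147 calls (738 in the reported fit). In the 6 compared libraries alone ABCC4 in DTC was -0.37, and in KO2 ABCC1 was 0.21, ABCC5 0.22, ABCC10 0.47 and ABCG2 -0.18, with 2656 calls. With DESeq2 ABCC10 in KO2 was 0.45, ABCB1 in DTEC against DTC had 0.0953, and KO2 gave 1149 calls. Among called genes, those higher went with total counts alone from 50.5% to 68.4% in DTC, 49.7% to 63.7% in DTEC, 51.9% to 37.4% in DTEC against DTC and 64.1% to 78.8% in KO2, and the upper quartile gave 65% in DTC and 38.7% in DTEC against DTC; in the 6 libraries alone that of KO2 was 52.6%.

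Without single libraries ABCC4 in DTC ran from -0.48 to -0.21, ABCC10 in DTEC from -0.005 (without untreated WT replicate 1) to 0.222, and in KO2 ABCC3 from 0.43 to 0.52, ABCC4 from -0.056 (without KO2 replicate 3; -0.036 without untreated WT replicate 1) to 0.087, and ABCC10 from 0.37 to 0.61. The adjusted p of ABCB1 ran from 0.0214 to 0.147 in DTEC and from 0.0427 to 0.078 in DTEC against DTC, and the calls in KO2 from 321 to 426. Of 103 results for other named genes 93 kept their call in all alternatives; NHERF1 in DTC turned to 0.011 with total counts alone, and TDP1 in DTEC, not called, ran from -0.01 (without DTEC replicate 1; -0.005 without untreated WT replicate 2) to 0.085 without single libraries (without untreated WT replicate 1), and reached 0.186 with total counts alone. Genes and comparisons named after their values were seen are not among the 103 results. With the longest transcript as the length, 3 of 8 ranks were unchanged in untreated WT and 3 in DTC.

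Same-numbered libraries of different groups had deviations correlated at -0.03 to 0.179, with 4 of 18 pairs above 0.1. In all other groups at once, 5 of 12 libraries correlated best with their own number. The replicate numbers may thus carry some weak pairing, which the reported fit leaves out. With the replicate block 11775, 9255, 9732 and 887 genes were called in DTC, DTEC, DTEC against DTC and KO2 (11520, 8955, 9480 and 738 without it), and ABCC10 in KO2 passed at 0.45 (adjusted p 0.0422). Depth limits ABCB1, with 41 counts in all libraries together, and the genes near the floor.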
